A study of Mus musculus with 6 samples.

Results

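The Ifi200 family, also called the PYHIN or HIN-200 family, is a cluster of interferon-inducible genes on mouse chromosome 1. The 6 genes described here are Ifi202b, Ifi203, Ifi204, Ifi205, Mndal and Aim2. They were taken by gene symbol from 32028 genes, and the group was chosen by the measured counts of Ifi202b, which were 0 in every Macf1 knockout clone. Levels in het against knockout clones are thus what selected the genes, so for the 6 genes these levels are given as a description with no test. Together with 8 relatives that were not among the chosen genes, 14 family genes were annotated in the cluster. All 6 chosen genes passed the filter on low counts, and so did 4 of the 8 others.

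The libraries came from mouse embryonic fibroblasts (MEFs) immortalized with SV40 large T antigen and treated with AAV8-CMV-Cre, an adeno-associated virus that carries Cre recombinase behind the broadly active CMV promoter. There were 3 clones from Macf1flox/+ mice, which after Cre are heterozygous controls (Macf1-/+, het), and 3 from Macf1flox/flox mice, which are knockouts (Macf1-/-). Both groups share the immortalization and the Cre treatment, and each library is a line raised from a single cell. The embryos, their strain and age, and whether the clones of a genotype arose independently are not given in the sources used here. The p-values therefore measure only the spread between these clones.

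Proteins of this family bind DNA through a HIN domain, and many carry a pyrin domain that joins them to other pyrin proteins. Aim2 senses DNA in the cytosol and recruits the adaptor ASC, encoded by Pycard, to activate caspase-1 in an inflammasome. Ifi204 encodes p204, which has been linked to signalling through the adaptor STING, whereas Ifi202b encodes p202, a protein with HIN domains and no pyrin domain that binds DNA and restrains Aim2. Ifi202b is a candidate gene of a mouse lupus susceptibility locus, and its expression is known to differ between inbred strains.

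Estimated counts totalled 15661342 to 18209673 per library. Macf1 stood at 579 to 696 CPM (counts relative to the library total, adjusted by TMM) in het clones and at 309 to 363 CPM in knockout clones. Of 12745 genes tested with edgeR, 28.1% passed an adjusted p of 0.05, and this share fell to 14.4% without knockout replicate 1 and 11.8% without knockout replicate 2. Fibroblast markers were present, with summed levels of 4522 to 6881 in het and 2073 to 4132 CPM in knockout clones, but Lum was at 0 in all 6 clones and Thy1 at or near 0. Vim and S100a4 made up most of the knockout sum. The collagen genes Col1a1, Col1a2 and Col3a1 averaged 1229, 1056 and 78.5 CPM in het but 7.40, 0.816 and 3.49 CPM in knockout clones, Pdgfra and Pdgfrb averaged 6.65 and 127 CPM against 1.29 and 35.7 CPM, and Dcn had no knockout counts. Apart from Dcn, which had too few counts to be tested, these genes and S100a4 passed as lower (edgeR). Not all fibroblast markers fell. Vim, Postn and Fap had higher knockout means, at 2866, 1.25 and 0.384 CPM against het means of 2425, 0.700 and 0.141 CPM. Vim and Postn did not pass (adjusted p = 0.612 and 0.369, edgeR), and Fap had too few counts to be tested. Of 12 macrophage and dendritic cell markers, Adgre1 and Tyrobp had no counts in any clone and 2 averaged above 1 CPM in either genotype. Summed over these 12 markers, het clones held 12.1 to 17 CPM, whereas knockout clones held 22.7 to 27.5 CPM. Cd14 rose from a mean of 7.95 to 18.9 CPM and passed as higher (adjusted p = 0.0257, edgeR). Cd68, with means of 4.60 (het) and 4.22 CPM (knockout), did not pass, nor did Csf1r at 0.609 and 0.771 CPM. Cd14 thus made up most of the knockout sum, and the rise was not shared by all 12 markers. The others were low and went both ways. Csf1r and Mrc1 (0.0396 CPM in het, 0.426 CPM in knockout clones) had higher knockout means, whereas Cd68 and Ptprc (0.337 and 0.253 CPM) had lower ones. Mrc1 and Ptprc had too few counts to be tested. What either marker list contributes to the values below was not tested.

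Ifi202b (ENSMUSG00000026535; chromosome 1, 173962568 to 173982744, minus strand, GRCm38) was the only one of the 6 genes that was absent from a genotype. Het replicates 1, 2 and 3 held 368, 621 and 1110 counts, or 22, 34.9 and 69.6 CPM. Knockout replicates 1, 2 and 3 held 0 counts each. A floor of 3 counts per library corresponds to 0.155 to 0.184 CPM in the knockout clones. Against the same floor taken over the whole group, the level was at least 721-fold lower in knockout clones. Because the strain of the embryos is not given, the knockout genotype and a difference in genetic background cannot be told apart for Ifi202b. In these bulk libraries fewer expressing cells and less RNA per cell cannot be told apart. The deposited FPKM values, which are scaled to transcript length and library size, of its only transcript were 12.9, 20.7 and 42.2 in het clones and were listed at 0 in the 3 knockout clones. The authors' deposited table gave a log2 fold change of -12.48.

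**Figure D1:**
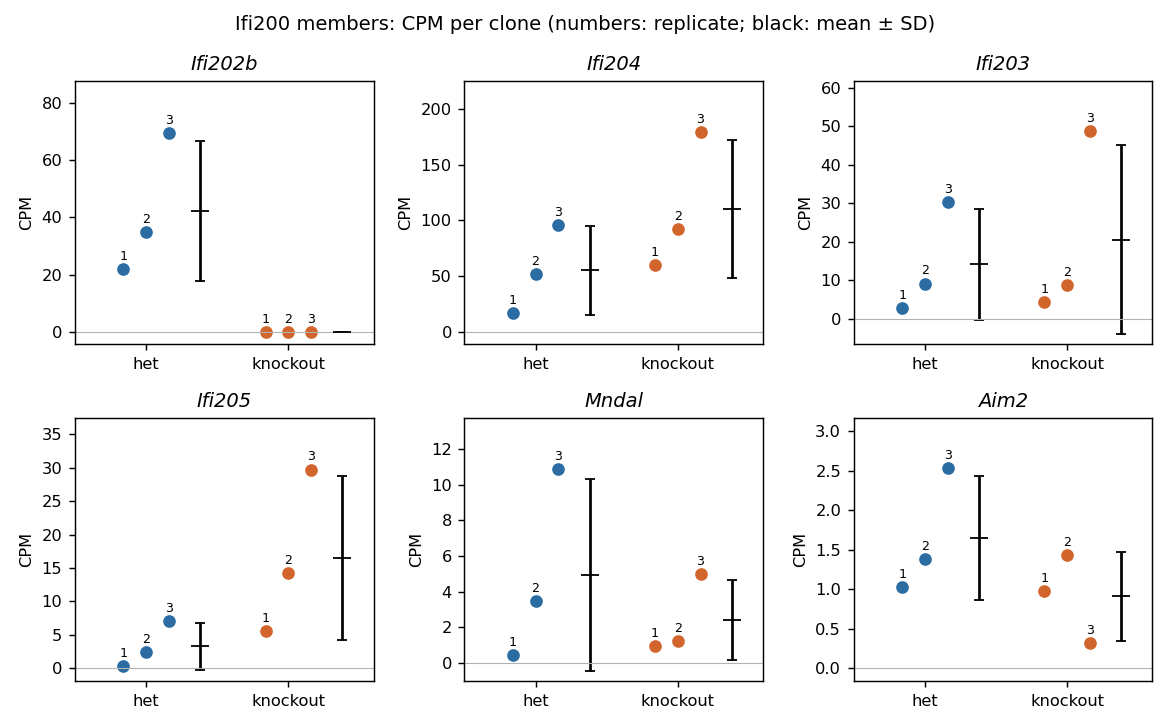
CPM of the 6 Ifi200 genes (y axis, linear, its own scale per panel) in het (blue) and knockout (orange) clones. Points are single clones with their replicate number and black bars are the mean ± SD of 3 clones. Ifi202b is at 0 in all 3 knockout clones, and the clones of the genotypes overlap in the other 5 panels.

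Among the other 5 genes the clones of the genotypes overlapped in every case. Across all tested genes they did not overlap in 47.5%, with 23.7% lower and 23.8% higher in knockout clones, and nothing is read from this comparison because the same contrast chose the genes.

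Ifi204 (ENSMUSG00000073489; 173747293 to 173766943, minus strand) measured 16.8, 52.2 and 96.3 CPM in het replicates 1, 2 and 3. The knockout replicates 1, 2 and 3 measured 59.5, 92.2 and 180 CPM. The means were 55.1 ± 39.8 and 110 ± 62.1 CPM (SD, n = 3 clones each), and the fitted log2 fold change was 1.0 (SE 0.70). The lowest clone of all was het replicate 1 and the highest was knockout replicate 3. Its main transcript, Ifi204-201, held 87.3% to 91.5% of the gene's counts in all 6 clones, so the make-up of Ifi204 varied little while its level varied widely.

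Ifi205 (ENSMUSG00000054203; 174011998 to 174031810, minus strand), the next gene after Ifi202b on the chromosome, measured 0.299, 2.51 and 7.13 CPM in het replicates 1, 2 and 3. In knockout replicates 1, 2 and 3 it measured 5.58, 14.3 and 29.7 CPM. Only het replicate 3 lay within the knockout range. The fitted log2 fold change was 2.32 (SE 1.05), and it ranged from 1.58 to 3.53 when a clone was left out. Ifi205 thus stood higher in knockout clones on average, on the far side of a gap of 29.3 kb from a gene with no knockout counts.

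Ifi203 (ENSMUSG00000039997; 173920407 to 173942672, minus strand), the neighbour on the other side across 19.9 kb, measured 2.85, 9.2 and 30.4 CPM in het replicates 1, 2 and 3. The knockout replicates measured 4.32, 8.7 and 48.8 CPM. Its log2 fold change of 0.55 (SE 1.18) became -1.12 without knockout replicate 3, so no direction can be given for it. Mndal (ENSMUSG00000090272; 173849126 to 173942491, minus strand) measured 0.432, 3.47 and 10.9 in het and 0.967, 1.22 and 5.01 CPM in knockout replicates 1, 2 and 3. Its log2 fold change was -1.02 (SE 1.10) and became 0.30 without het replicate 3. In both genes replicate 3 of each genotype was the highest clone.

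Aim2 (ENSMUSG00000037860; 173350879 to 173466040, plus strand) lies at the far end of the cluster and had the lowest mean CPM of the 6 genes in het clones, although Ifi205 and Mndal were lower in het replicate 1. It had 17.1, 24.7 and 40.4 estimated counts in het replicates 1, 2 and 3, or 1.02, 1.39 and 2.53 CPM. The knockout replicates had 16.1, 23.3 and 6.18 counts, or 0.984, 1.43 and 0.32 CPM. Knockout replicate 3, the highest knockout clone for the other 4 genes expressed in knockout clones, was the lowest for Aim2. Its log2 fold change was -0.87 (SE 0.60). The clones of the genotypes overlapped, and no direction is read from these few counts.

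Levels can be compared between genes only per transcript length, which was done as CPM per kilobase summed over transcripts. In het clones Ifi202b (24.9 ± 14.5 CPM per kilobase, SD, n = 3) stood beside Ifi204 (24.8 ± 17.9) and its relative Ifi211 (25.4 ± 14.1), and these 3 did not differ beyond their spread. Below them came Ifi203 (4.80 ± 4.83), Mndal (3.16 ± 3.25), Ifi205 (1.79 ± 1.90) and Aim2 (1.28 ± 0.596), whose neighbours in this order also overlapped. Within every single het clone, however, Ifi203 stood above Mndal and Mndal above Ifi205, whereas Aim2 stood above Ifi205 in het replicate 1 only. In knockout clones the order per kilobase of these same genes was Ifi211 (64.6 ± 40.8), Ifi204 (50.2 ± 28.1), Ifi205 (9.53 ± 7.07), Ifi203 (7.37 ± 8.53), Mndal (1.52 ± 1.37), Aim2 (0.489 ± 0.296) and Ifi202b at 0. Neighbours overlapped here too, apart from Ifi204 over Ifi205 and Aim2 over Ifi202b. Within every single knockout clone Ifi211 stood above Ifi204. The relative Ifi207, left out of both orders, stood at 1.12 ± 1.19 in het and 1.93 ± 0.810 CPM per kilobase in knockout clones. In CPM, which is not scaled to length, Ifi202b made up 32.1% to 50.7% of the sum of the 6 genes in het clones. Of the sum of all 14 family genes, which includes Ifi211, it made up 22.3% to 33.7%. The sum of the 6 genes was 43.4, 104 and 217 in het and 71.4, 118 and 263 CPM in knockout replicates 1, 2 and 3, and the genotypes overlapped.

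Because family genes resemble each other, it was asked how well reads can be assigned to them. For each gene the distinct stretches of 31 bases in its transcripts were compared with the transcripts of all other genes in the count table, on both strands. Ifi202b, with a single transcript of 1697 bases, shared 1.2% of its 1667 stretches with any other gene and 0% with a family gene. Aim2 shared 4.81%, none of them within the family. The share was 33.8% for Ifi204, 27% for Mndal, 22.1% for Ifi205 and 21.7% for Ifi203, and it was 78.9% for Ifi211. The Ifi202b counts were whole numbers in every clone, whereas those of Mndal and Ifi203 were split by estimation. Mndal spans Ifi211 and overlaps Ifi203 on the same strand, and the estimated share of Mndal-204 among Mndal counts ranged from 0% to 55% between clones. Levels of Mndal, Ifi203 and Ifi211 are therefore uncertain as single genes. The counts of Ifi204 and Ifi205, which share 33.8% and 22.1% of their stretches, were also partly estimated and are less secure than those of Ifi202b.

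**Figure D2:**
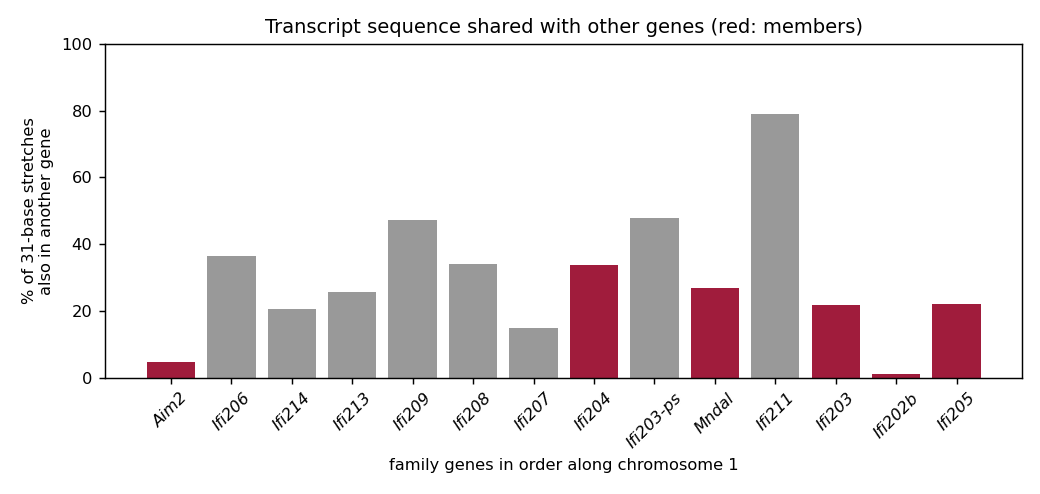
Percent of the distinct 31-base stretches of each annotated Ifi200 gene that also occur in a transcript of another gene (y axis, 0 to 100). Genes stand in chromosome order, and red bars are the 6 described genes. Ifi202b (1.2%) and Aim2 (4.81%) have the lowest bars and Ifi211 (78.9%) the highest.

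The promoter windows of Ifi202b and of the genes on either side of it, with Ifi211 for comparison, are shown because Ifi202b had no knockout counts while these others were expressed in knockout clones. Each runs from 250 bases before to 50 after the start site and was taken from RefSeq (GRCm38.p6, minus strand, 5′ to 3′). Capitals mark the letters GAAA followed after any 2 bases by another GAAA, a core of the interferon-stimulated response element (ISRE) bound by interferon-activated factors, and TTCNNNGAA, the gamma-activated site (GAS) bound by factors activated by interferon gamma, on either strand. No match of one motif overlapped a match of the other. The windows are chr1:173982795-173983094 for Ifi202b, chr1:174031706-174032005 for Ifi205, chr1:173942443-173942742 for Ifi203 and chr1:173912997-173913296 for Ifi211. Another RefSeq start of Ifi203 has the window chr1:173942623-173942922, which holds neither motif.
Ifi202b: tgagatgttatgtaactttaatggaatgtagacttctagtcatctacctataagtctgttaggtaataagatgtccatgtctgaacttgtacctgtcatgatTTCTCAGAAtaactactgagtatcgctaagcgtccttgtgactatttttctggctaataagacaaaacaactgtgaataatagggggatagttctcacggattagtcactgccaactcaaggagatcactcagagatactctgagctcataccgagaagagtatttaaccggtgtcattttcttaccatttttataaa
Ifi205: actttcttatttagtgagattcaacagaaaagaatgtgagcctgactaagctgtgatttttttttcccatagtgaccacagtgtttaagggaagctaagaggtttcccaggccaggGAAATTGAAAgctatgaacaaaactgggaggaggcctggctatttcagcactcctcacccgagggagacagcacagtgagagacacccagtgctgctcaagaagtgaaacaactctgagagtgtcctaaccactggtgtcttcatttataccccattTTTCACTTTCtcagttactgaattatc
Ifi203: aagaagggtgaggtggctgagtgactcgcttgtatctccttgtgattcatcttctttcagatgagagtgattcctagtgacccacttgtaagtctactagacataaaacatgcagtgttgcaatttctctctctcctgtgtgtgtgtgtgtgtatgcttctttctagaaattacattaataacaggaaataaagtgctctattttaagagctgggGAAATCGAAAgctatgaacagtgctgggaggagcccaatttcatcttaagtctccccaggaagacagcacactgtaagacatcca
Ifi211: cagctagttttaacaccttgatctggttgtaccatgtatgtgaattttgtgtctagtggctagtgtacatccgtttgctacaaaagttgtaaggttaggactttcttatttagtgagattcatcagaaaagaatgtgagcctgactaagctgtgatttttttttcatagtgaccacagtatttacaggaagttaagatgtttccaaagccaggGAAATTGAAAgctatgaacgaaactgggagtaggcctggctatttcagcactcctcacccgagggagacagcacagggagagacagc

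Of the 14 family genes, 12 were found in the promoter table, and 9 of them held the ISRE letters. Ifi204 and the pseudogene Ifi203-ps had no window there and were not examined for either motif. Where they occurred, these letters mostly began 35 to 79 bases before the start site. The exception was Ifi205, which had matches 134 bases before and 24 bases after it. The ISRE letters occurred in 3.99% of all 27025 genes in the table and in 22 of 40 interferon-induced genes found there. They were not in the windows of Ifi202b, Aim2 and Ifi209. The lowest coordinate of the Ifi202b window is 173982795, whereas its only counted transcript starts at 173982744 on the minus strand. That start and the bases just before it lay outside the window, so the ISRE letters were not looked for there. The Ifi202b window alone among the 12 genes held the GAS letters, which read TTCTCAGAA and began 148 bases before the start site, and these letters occurred in 9.55% of all genes. Ifi202b and Aim2 shared no stretch of 20 bases with the window of any other family gene, whereas Ifi205 and Ifi211 shared 59 such stretches of 281. The windows are reference sequence. Because the strain of the embryos is not given, the clones may carry other letters there, which was not examined. A match of letters is a description and does not show binding.

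The remaining relatives were not chosen for their values in this contrast, and they were tested. Ifi211 (ENSMUSG00000026536), listed under the symbol Mnda in the authors' deposited table, measured 19.5, 47.1 and 69.6 in het and 58.4, 90.1 and 197 CPM in knockout replicates 1, 2 and 3. The genotypes overlapped and it did not pass (adjusted p = 0.158 in edgeR, with a log2 fold change of 1.35 and SE 0.62). In the authors' deposited table its log2 fold change was 1.38 with an adjusted p of 0.0261. Ifi207 measured 3.83 ± 4.05 in het and 6.62 ± 2.77 CPM in knockout clones (adjusted p = 0.574, edgeR). Ifi208 and Ifi213 stood below 2 CPM in all clones (adjusted p = 0.269 and 0.357, edgeR). None of these 4 genes passed with edgeR, DESeq2 or limma-voom, and 0 had an unadjusted p under 0.05 with any of the 3. Ifi206, Ifi209, Ifi214 and the pseudogene Ifi203-ps had too few counts to be tested, with at most 1.21 CPM in any clone.

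**Figure D3:**
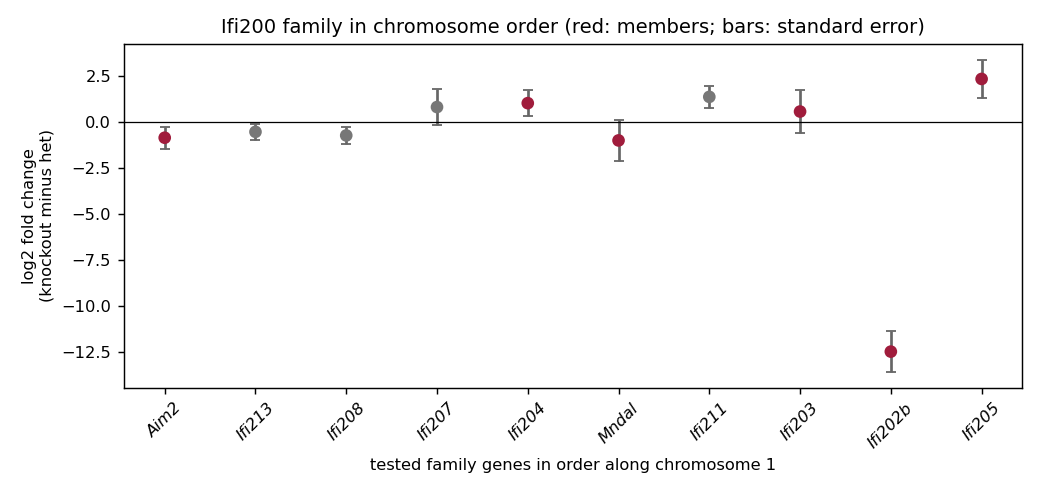
Fitted log2 fold change, knockout minus het (y axis), of the 10 tested Ifi200 genes in their order along chromosome 1. Bars are standard errors and red points are the described genes. Ifi202b stands at -12.49, a fitted value against a group without counts, while the other 9 lie between -1.02 and 2.32.

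Within each genotype the family varied far more than most genes. Among the 5 chosen genes with counts in both genotypes, the highest clone exceeded the lowest at least 2-fold in 5 of 5 in het and 5 of 5 in knockout clones. Among all 12684 such genes tested this held for 15.4% in het and 13.8% in knockout clones. The median ratio of highest to lowest clone was 10.7 in het and 5.18 in knockout clones for the 5 genes, and 1.28 in both genotypes for all genes. The spread had a common pattern, which was noticed in the values and then counted. Het replicate 1 was the lowest and het replicate 3 the highest het clone, and knockout replicate 1 was the lowest and knockout replicate 3 the highest knockout clone, in 4 of the 5 genes, all but Aim2. This arrangement was found in 8.96% of all genes. Ifi202b followed it in the het clones, where its highest clone exceeded its lowest 3.16-fold.

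Interferon-induced genes, which are switched on by type I interferon or by innate sensing itself, had the same arrangement in 37 of 49 tested members. Their median level was 3.17, 38.3 and 79.4 in het and 18.4, 41.1 and 108 CPM in knockout replicates 1, 2 and 3. Ifit1, an interferon-induced RNA-binding protein gene, measured 11.7, 300.1 and 587 in the het and 49.4, 178 and 562 CPM in the knockout clones. Genes of a list share these libraries and are not independent of each other, so the counts describe the 6 clones.

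**Figure D4:**
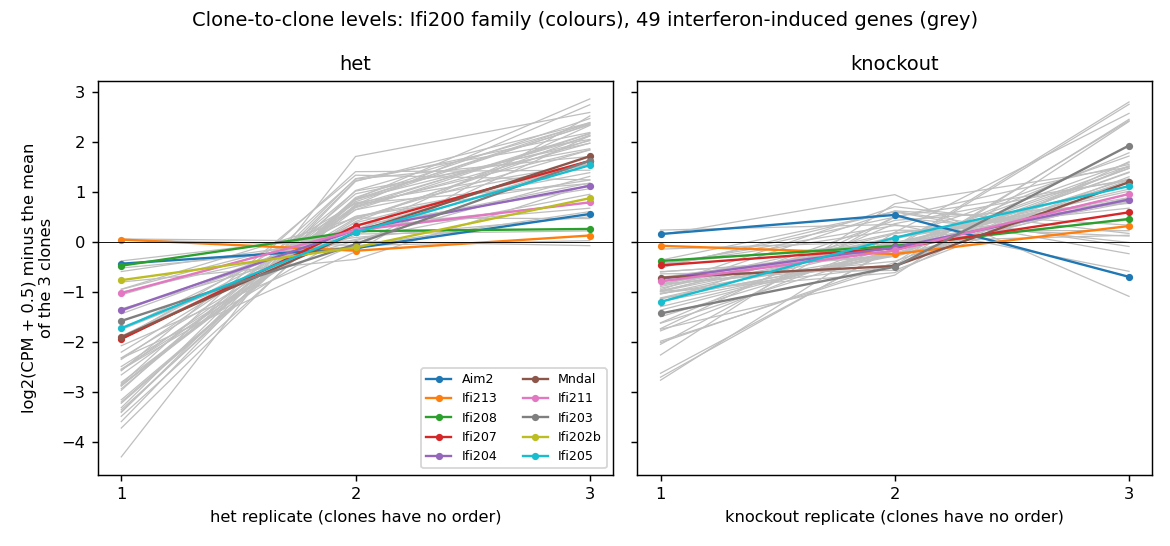
Level of each gene in the 3 clones of a genotype, as log2(CPM + 0.5) minus the mean of those 3 clones (y axis), for tested Ifi200 genes (colours) and 49 interferon-induced genes (grey). Each line joins the values of 1 gene and the clones have no order. Most coloured and grey lines are lowest in replicate 1 and highest in replicate 3 of both genotypes, Aim2 is lowest in knockout replicate 3, and Ifi202b has no line in the knockout panel.

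Ratios of CPM to Ifi204 describe how the family genes stood to each other within a clone. The ratio of Ifi202b to Ifi204 was 1.31, 0.669 and 0.723 in het replicates 1, 2 and 3. That of Ifi211 to Ifi204 stayed between 0.723 and 1.16 in all 6 clones. The ratio of Ifi205 to Ifi204 was 0.0178 to 0.0741 in het and 0.0938 to 0.166 in knockout clones, with no overlap. For Ifi203 it was 0.170 to 0.315 in het and 0.0726 to 0.272 in knockout clones, and for Mndal 0.0257 to 0.113 and 0.0133 to 0.0279, both with overlap. These ratios were chosen after the values were seen and were not tested, and all of them carry the uncertainty in assigning reads to Ifi204. The Ifi205 ratio of het replicate 1 rests on 5 counts of Ifi205. Levels of single genes did not overlap between the genotypes in 47.5% of all tested genes. No such share was taken for ratios, so nothing is read from the lack of overlap.

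Genes of the pathway around these sensors were examined as lists. For cytosolic DNA sensing, in which cGAS makes a second messenger that activates STING, 2 of 19 tested genes rose, 1 fell and 16 did not pass (edgeR; 15.8% passing, against 28.1% of all tested genes). The list median of the log2 fold change was 0.13, against -0.00061 over all tested genes. Cgas measured 28.3 ± 11.9 and 34.2 ± 8.62 CPM and Tmem173, which encodes STING, 41.6 ± 20.9 and 41.9 ± 1.46 in het and knockout clones (adjusted p = 0.610 and 0.987, edgeR; both chosen after their values were seen). Mre11a, a DNA break sensor gene, rose from 70.8 ± 0.921 to 101 ± 7.65 CPM (adjusted p = 0.00838 in edgeR, with a log2 fold change of 0.51 and SE 0.09). Trim56, a ubiquitin ligase gene linked to STING signalling, rose from 101 ± 24.9 to 171 ± 36.6 CPM (adjusted p = 0.0450, edgeR). Its call was lost when any clone other than het replicate 3 was left out (adjusted p 0.0545 to 0.119, edgeR). Unc93b1, which brings nucleic acid-sensing Toll-like receptors to endosomes, fell from 8.54 ± 7.76 to 0.0581 ± 0.00554 CPM (adjusted p = 0.00832, edgeR; 0.0632 with limma-voom). The count of 2 higher genes became 1 when het replicate 2, knockout replicate 1 or knockout replicate 2 was omitted, and that of 1 lower gene became 2 without het replicate 1.

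The inflammasome lies downstream of Aim2. Of 20 annotated genes of the inflammasome and pyroptosis list, 9 had enough counts to be tested, and 1 fell, 0 rose and 8 did not pass (edgeR; 1 higher and 3 lower at an unadjusted p of 0.05, 1 higher and 2 lower with DESeq2, 1 and 1 with limma-voom). The share passing was 11.1%, against 28.1% of all tested genes, and the median log2 fold change was -0.14. Casp1, which encodes the protease that Aim2 activates, had at most 0.0627 CPM in any clone and was not tested. Pycard measured 1.44 ± 0.203 in het and 0.542 ± 0.42 CPM in knockout clones (adjusted p = 0.104, edgeR). Gsdmd, which encodes the pore-forming protein of pyroptosis, was not tested and stood at 0.120, 4.55 and 12.9 CPM in het replicates 1, 2 and 3 and at most 0.0611 CPM in knockout clones. These 3 genes were chosen after their values were seen. Casp12, an inflammatory-type caspase gene, fell from 27.1 ± 15.9 to 2.86 ± 1.09 CPM (adjusted p = 0.0074 in edgeR, with a log2 fold change of -3.24 and SE 0.54). Among the most abundant others, Nek7, a kinase gene needed for the NLRP3 inflammasome, measured 120 ± 22.6 and 144 ± 32.5 CPM, and Casp8 46.7 ± 9.52 and 58.9 ± 5.36 CPM (adjusted p = 0.371 and 0.176, edgeR). Without het replicate 1 the list had 1 higher and 3 lower genes, and without knockout replicate 3 it had 3 lower genes.

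Nucleases that remove stray nucleic acid, and so keep such sensors quiet, had 1 of 13 tested genes higher, 0 lower and 12 not passing (edgeR; 1 higher and 0 lower at an unadjusted p of 0.05, 2 and 0 with DESeq2, 1 and 0 with limma-voom; median log2 fold change 0.04). The share passing was 7.69%, against 28.1% of all tested genes. Rnaseh2c, a subunit gene of ribonuclease H2, rose from 15.8 ± 3.33 to 26.2 ± 2.58 CPM (adjusted p = 0.0241, edgeR), and its adjusted p was 0.0755, 0.0807 and 0.0989 when het replicate 2, knockout replicate 1 and knockout replicate 2 were omitted, each of which left 0 higher genes. Without het replicate 1 the list had 1 lower gene. Samhd1 measured 272 ± 24.5 and 247 ± 28.8 CPM and Adar, which edits double-stranded RNA, 138 ± 55 and 273 ± 143 in het and knockout clones (adjusted p = 0.434 and 0.163, edgeR).

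Interferon receptors and signalling genes had 1 of 18 tested genes higher, 0 lower and 17 not passing (edgeR; 3 higher and 4 lower at an unadjusted p of 0.05, 1 and 2 with DESeq2, 1 and 0 with limma-voom; median log2 fold change 0.27). That is 5.56% passing, against 28.1% of all tested genes. Il10rb, a receptor subunit gene shared by interferon lambda and interleukin-10, rose from 30.6 ± 0.648 to 40.5 ± 1.56 CPM (adjusted p = 0.0182, edgeR). Omitting any of het replicates 2 and 3 and knockout replicates 1 and 2 left 0 higher genes (adjusted p 0.0579 to 0.0907), and 1 gene was lower without het replicate 1, het replicate 3 or knockout replicate 3. Jak1, a kinase gene of these receptors, measured 321 ± 41.9 and 251 ± 7.16 CPM (adjusted p = 0.0675, edgeR).

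Of 49 tested interferon-induced genes, 1 was higher, 0 lower and 48 did not pass (edgeR; 2 higher and 2 lower at an unadjusted p of 0.05, 1 and 3 with DESeq2, 1 and 0 with limma-voom). This is 2.04% of the list, against 28.1% of all tested genes, and its median log2 fold change was 0.58. Ifi30, a lysosomal thiol reductase gene, rose from 38 ± 1.81 to 67.4 ± 6.49 CPM (adjusted p = 0.00294 in edgeR, with a log2 fold change of 0.83 and SE 0.11). The most abundant others were Ifit1, at 300 ± 288 and 263 ± 267 CPM, and Ifitm3, which encodes a membrane protein that blocks virus entry, at 216 ± 149 and 458 ± 219 in het and knockout clones (adjusted p = 0.931 and 0.273, edgeR). Without het replicate 1, the clone with the lowest median level, 4 genes of the list were lower.

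**Figure D5:**
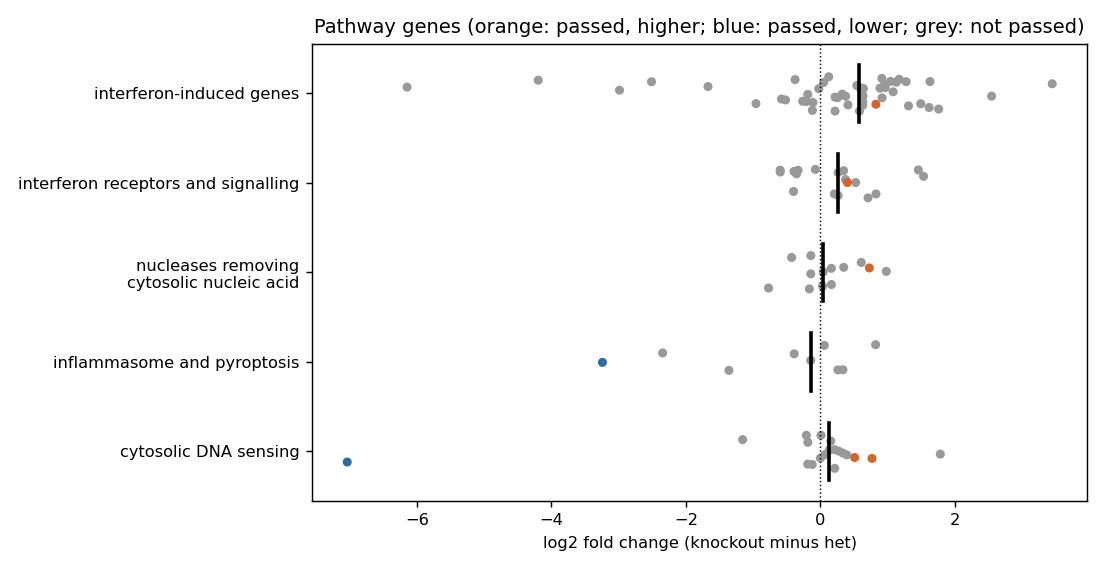
Log2 fold change, knockout minus het (x axis), of the tested genes in 5 pathway lists (rows, with vertical jitter). Orange and blue points passed edgeR's adjusted p of 0.05 as higher and lower, grey points did not pass, thick bars are list medians and the dotted line is the median of all tested genes. The interferon-induced genes spread widely around a median of 0.58, and 1 of the 49 passed.

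The neighbourhood of the cluster was compared in the same fit. The 14 genes span 681 kb, and of 136 other genes annotated within 2 Mb of either edge 26 were tested. Of these, 3 rose, 1 fell and 22 did not pass (15.4% passing, against 28.1% of all tested genes; median log2 fold change 0.01). After the cluster, Fh1, Opn3 and Chml did not pass (adjusted p = 0.231, 0.828 and 0.720, edgeR). The nearest before the cluster was the phosphatase gene Dusp23, at 718 kb, with 1.11 ± 0.0687 and 0.578 ± 0.0337 CPM (adjusted p = 0.0644, edgeR). Beyond it, Cfap45 and Tagln2 did not pass (0.0792 and 0.879), and Igsf9 fell from 0.836 ± 0.0581 to 0.0726 ± 0.0783 CPM (adjusted p = 0.0132, edgeR; 0.0734 without knockout replicate 2). F11r and Pfdn2, which were higher, were chosen after their values were seen and lie 1886 and 1992 kb before the cluster. The count of 3 higher genes became 1 without het replicate 3 or knockout replicate 1 or 2. The count of 1 lower gene became 2, 0 and 3 without het replicate 1, knockout replicate 2 and knockout replicate 3.

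The genes whose profile was most like that of Ifi202b were found by Pearson correlation of log2(CPM + 0.5) over the 6 clones, among 10712 genes whose higher genotype mean reached 5 CPM. They were Hsf4 (a heat shock factor gene), Svep1 (a large extracellular protein gene), Slit2 (a guidance ligand gene), Layn (layilin, a hyaluronan receptor gene) and Il1rn (the interleukin-1 receptor antagonist gene), with r of 0.998 to 0.999. Each lies on another chromosome. Il1rn measured 47.3, 86.3 and 157 CPM in het replicates 1, 2 and 3 and 0.0634 to 0.363 CPM in knockout clones. Slit2 measured 100, 196 and 321 CPM in the het clones and at most 0.125 CPM in knockout clones. A correlation above 0.95 was reached by 630 genes, so a profile close to that of Ifi202b over these 6 clones was not particular to a few genes. The correlation uses the same Ifi202b values that chose the group. A large drop from het to knockout clones can alone give a high r, so the likeness is a description and nothing further is read from it.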

How the data were processed

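Per the labels' protocols, poly(A) RNA of 6 clones was sequenced after a stranded mRNA preparation. Trimmomatic 0.36, kallisto 0.42.5, edgeR and genome build GRCm38.p4 were used, per the submitters' processing notes. The authors deposited estimated counts per transcript (96626 transcripts), FPKM values (24799 transcripts), and a comparison with log2 fold changes, p-values and adjusted p-values per transcript, per the file headers.

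Estimated counts were summed per gene with GENCODE M21 (GRCm38) and rounded. Of the transcripts, 1153 had no gene and were left out (at most 0.0278% of a sample's counts). Genes kept by filterByExpr (count minimum 10, total minimum 15) were TMM-scaled and tested with edgeR 4.0.16 (robust quasi-likelihood F test, two-sided, Benjamini-Hochberg over 12745 genes) under R 4.3.3. Standard errors were derived from F. Alternatives used DESeq2 1.42.0, limma 3.58.1 (voom, and log2(FPKM + 1) or log2(FPKM + 0.1)), RLE scaling, library totals, other filters, transcripts as units and each clone left out. The procedure was tested on simulated data drawn from its own model with the spread fitted here. Such data cannot show whether the clones are independent. Floors cover counting error only.

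The described genes, the gene lists and the promoter motifs were chosen with earlier results of these data known. Named genes were the 6 Ifi200 genes, their relatives with counts, up to 4 passing genes of each pathway list by adjusted p (if fewer than 2 passed, also the 2 others of highest mean CPM), the 4 nearest tested neighbours on each side, the 5 genes most like Ifi202b, and Macf1. Summed levels of lymphocyte, endothelial and epithelial markers were at most 5.71, 4.87 and 1.52 CPM in any clone. A result on 2 of the named genes is not reported here.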

Additional observations from a re-analysis of the deposited data

How the results depend on the processing

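No paired analysis was possible because the labels give no replicate numbers that tie clones of the genotypes together. Across all genes, 1771 were higher and 1814 lower, with 695 to 1769 and 871 to 2056 when a clone was left out. The log2 fold change of Ifi202b, -12.49 in edgeR, was -10.34 with limma-voom, -4.56 on log2(FPKM + 1) and -7.82 on log2(FPKM + 0.1), where the pseudocount limits it, and -12.81 to -11.94 with a clone left out. Mndal was at 0.18 for its transcript Mndal-205 and between -2.16 and 0.30 with a clone left out. The ranges with a clone left out were -1.12 to 1.77 for Ifi203, 0.46 to 1.68 for Ifi204, 1.58 to 3.53 for Ifi205 and -1.36 to -0.44 for Aim2. For the summed level of the 6 genes (log2 ratio 0.31) the range was -0.36 to 1.04.

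List counts are small and moved easily. Cytosolic DNA sensing had 1 higher gene with library totals or at least 1 CPM in 3 samples, 0 lower genes with limma-voom or either FPKM scale, and 1 to 2 in each direction with a clone left out. The inflammasome list had 1 higher gene with DESeq2, limma-voom and both FPKM scales, 2 lower with DESeq2, and 0 to 1 higher and 1 to 3 lower with a clone left out. The nucleases had 2 higher genes with DESeq2, and 0 to 1 in each direction with a clone left out. Interferon signalling had 2 higher genes on both FPKM scales, 1 lower with library totals, 2 lower with DESeq2, and 0 to 1 in each direction with a clone left out. Interferon-induced genes had 2 higher on log2(FPKM + 1), 3 lower with DESeq2, and 1 higher and 0 to 4 lower with a clone left out. Neighbours had 1 higher and 0 lower on both FPKM scales, 0 lower at 1 CPM or more in 3 samples, and 1 to 3 higher and 0 to 3 lower with a clone left out. The cause of these changes was not tested, except that fewer genes have FPKM values or pass the stricter filter.

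Among single genes that had not passed, the sign turned for Ifit1 (0.40 with limma-voom, 0.39 and 0.45 on the FPKM scales, and -1.40 to 0.75 with a clone left out, positive without het replicate 3 or knockout replicates 1 or 2), Tagln2 (-0.041 to 0.16, negative without het replicate 3 or knockout replicates 1 or 2), Opn3 (-0.78 to 0.16) and Chml (-0.29 to 0.10), the last 2 positive without het replicate 1 or knockout replicate 3. Genes under about 2 CPM, such as Aim2, rest on few counts, which limits the precision of their values.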

Other observations

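Among interferon-induced genes, 3 were under 2 CPM in all knockout clones and above 10 CPM in 2 het clones, and they were chosen after their values were seen. Cmpk2, a mitochondrial nucleotide kinase gene, measured 0.12, 15.2 and 23 CPM in het replicates 1, 2 and 3 and had no counts in the 3 knockout clones, and it was not kept by the filter on low counts. Rsad2, which encodes the antiviral enzyme viperin, measured 0.677, 75 and 138 CPM in het and 0.244, 1.72 and 1.03 CPM in knockout replicates 1, 2 and 3 (adjusted p = 0.0562, edgeR). Psmb8, an immunoproteasome subunit gene, measured 0.18, 14.1 and 36.2 CPM in het replicates and 0.122, 0.8 and 1.76 CPM in knockout replicates 1, 2 and 3 (adjusted p = 0.116, edgeR). The clones of the genotypes overlapped for Rsad2 and Psmb8 through het replicate 1, the clone with the lowest interferon-related levels.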
